A study of Mus musculus with 386 samples.

Results

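Successive stretches of the mouse nephron are marked by the 10 genes described here, of 18820 genes measured, which were followed through the kidneys of 9 crosses. They were chosen by name as segment markers, with earlier results of these data known. The rule takes clusters with a single gene symbol, and the highest-mean one where a symbol has several, and each of the 10 was measured by 1 cluster. Segment by segment along the tubule they were Slc5a12, Mep1a, Slc34a1 and Slc5a2 of the proximal tubule, Umod and Slc12a1 of the thick ascending limb, Slc12a3 and Pvalb of the distal convoluted tubule, Calb1 of the distal convoluted and connecting tubule, and Aqp2 of the collecting duct. Within a segment the order has no meaning. All 10 passed the filter on low signal in kidney.

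The study measured RNA on Affymetrix Mouse Gene 1.1 ST arrays in kidney, brain, liver and lung of mice aged 23 days, and 102 of its 386 arrays are kidneys, 51 from females and 51 from males. The F1 crosses are CASTxPWK, PWKxCAST, CASTxWSB, WSBxCAST, PWKxWSB and WSBxPWK, with the dam named first, and their parents are the inbred strains CAST, PWK and WSB. No group carries an engineered allele or a treatment, and the labels describe a colony kept at UNC within a few generations of Jackson Laboratory founders. Each kidney is a separate animal, with 10 to 12 kidneys per cross and 5 or 6 per cross and sex, and the RNA came from powdered tissue. The powder mixes all cell types, so fewer cells of a type and less RNA per cell cannot be told apart. Variants of the strains in the probed sequence were not analysed, and a signal that differs by strain therefore need not mean a differing amount of transcript. All levels below are log2 signals and all differences are log2 differences.

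Filtrate leaving the glomerulus passes along the nephron, and each segment reclaims its own share of it. The proximal tubule takes back most sodium, phosphate, glucose and lactate, the thick ascending limb takes up sodium chloride without water, and the distal convoluted and connecting tubules adjust sodium, calcium and magnesium. The collecting duct sets the final urine through water channels that vasopressin moves to the apical membrane. A segment marker is a transporter, channel or binding protein made largely in one of these stretches.

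Promoters are shown for the genes whose values stood out most, namely Pvalb, which varied most between strains, and Slc34a1 and Slc12a3, whose levels moved most closely together between kidneys. RefSeq promoter windows of build GRCm38.p6, from 250 bases before to 50 bases after a start site, were found for 7 of the 10 genes, with 2 windows for Pvalb. Slc5a12, Slc5a2 and Calb1 had no entry. These are reference genome letters and not those of the 3 strains. Motifs were searched on both strands and are in capitals. They were the core of the HNF1 site GTTAAT, present in 7.1% of 32851 promoter windows of the same length, an HNF4 site CAAAGTCCA (0.475%), an estrogen-related receptor site TCAAGGTCA (0.423%), a TATA box TATAAA (13.6%) and an octamer ATTTGCAT (1.74%).
Pvalb, chr15:78204188-78204487 (minus strand): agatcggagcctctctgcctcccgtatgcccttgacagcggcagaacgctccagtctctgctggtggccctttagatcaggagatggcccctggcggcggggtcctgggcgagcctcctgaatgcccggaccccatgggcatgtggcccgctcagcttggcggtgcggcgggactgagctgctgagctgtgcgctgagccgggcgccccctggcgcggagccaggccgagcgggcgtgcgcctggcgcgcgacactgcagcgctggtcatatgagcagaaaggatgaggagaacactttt
Pvalb, chr15:78206351-78206650 (minus strand): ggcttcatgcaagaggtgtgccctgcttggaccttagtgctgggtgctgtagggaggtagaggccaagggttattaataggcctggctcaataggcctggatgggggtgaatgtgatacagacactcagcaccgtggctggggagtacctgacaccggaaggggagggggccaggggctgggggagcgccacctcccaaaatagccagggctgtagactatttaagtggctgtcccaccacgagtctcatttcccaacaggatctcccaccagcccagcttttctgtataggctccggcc
Slc34a1, chr13:55399398-55399697 (plus strand): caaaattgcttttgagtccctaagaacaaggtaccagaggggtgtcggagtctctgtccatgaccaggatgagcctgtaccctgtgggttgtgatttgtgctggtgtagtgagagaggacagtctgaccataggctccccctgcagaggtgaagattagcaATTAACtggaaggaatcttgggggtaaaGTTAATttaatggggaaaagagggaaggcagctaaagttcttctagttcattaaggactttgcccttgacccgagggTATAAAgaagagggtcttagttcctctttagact
Slc12a3, chr8:94328958-94329257 (plus strand): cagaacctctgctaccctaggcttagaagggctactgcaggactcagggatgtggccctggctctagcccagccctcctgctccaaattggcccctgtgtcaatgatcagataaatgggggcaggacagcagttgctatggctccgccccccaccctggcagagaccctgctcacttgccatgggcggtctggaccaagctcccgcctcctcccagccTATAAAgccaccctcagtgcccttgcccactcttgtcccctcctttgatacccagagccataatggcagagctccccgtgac
Neither Pvalb window held any of these letters. The Slc34a1 window held the HNF1 core at position -89, read there as ATTAAC on the reverse strand, and again at position -61, and a TATAAA at position 17, after the start. The Slc12a3 window held a TATAAA at position -32. No capitals in these 4 windows overlap. Of the windows not shown, Umod held GTTAAT at position -202, and Mep1a, Slc12a1 and Aqp2 held none of the motifs. A match is a description of the letters and says nothing of which factor binds.

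Skeletal muscle genes were high in 5 kidneys, which are described before the strain comparisons. The mean of 8 muscle genes, a list chosen after seeing the data, was 5.30 in the median kidney, and it reached 10.28 in PWKxWSB replicate 9, 8.47 in WSBxWSB replicate 7, 7.22 in CASTxCAST replicate 3, 7.02 in CASTxWSB replicate 9 and 6.82 in WSBxWSB replicate 9. The other kidneys lay between 4.99 and 5.69. Skeletal muscle makes large amounts of parvalbumin, and these arrays held the highest Pvalb values of their crosses, so Pvalb is given with and without them. No kidney array went against its sex label, no pair of kidney arrays held identical values (highest correlation 0.994), and array medians lay between 5.89 and 6.19. Other tissue also varied among the kidneys. The mean of 6 adipose genes ran from 7.42 to 10.83 and that of 5 adrenal genes from 4.47 to 10.31, while 5 exocrine pancreas genes stayed between 4.56 and 5.13.

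The markers stood high in kidney. In percentiles of the kidney signal of all genes, 9 of the 10 lay between 96.6 for Aqp2 and 99.9 for Slc34a1 and Umod, and Pvalb lay at 65.3. Kidney exceeded the mean of brain, liver and lung by 8.21 ± 0.06 (SE) for Mep1a, by 8.07 ± 0.07 for Umod and by 7.92 ± 0.06 for Slc5a12, which ranked 1, 2 and 3 among all 11292 tested genes. The excess was 7.67 for Slc12a1, 7.40 for Slc34a1, 7.22 for Slc12a3, 6.92 for Slc5a2, 5.58 for Aqp2 and 5.54 for Calb1. Pvalb had the smallest excess of the 10, at 2.0 ± 0.07 and rank 494. All 10 were called in this contrast, called meaning a limma adjusted p under 0.05 over all tested genes, beside 94.6% of all genes.

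Parvalbumin is a calcium-binding protein of the early distal convoluted tubule, of fast muscle fibres and of a class of inhibitory neurons. Its kidney signal differed more between strains than that of any other marker, and crosses accounted for 94.5% of its variance. In the 3 pairs of strains, F1 and inbred kidneys fell into the following order.

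**Figure D1:**
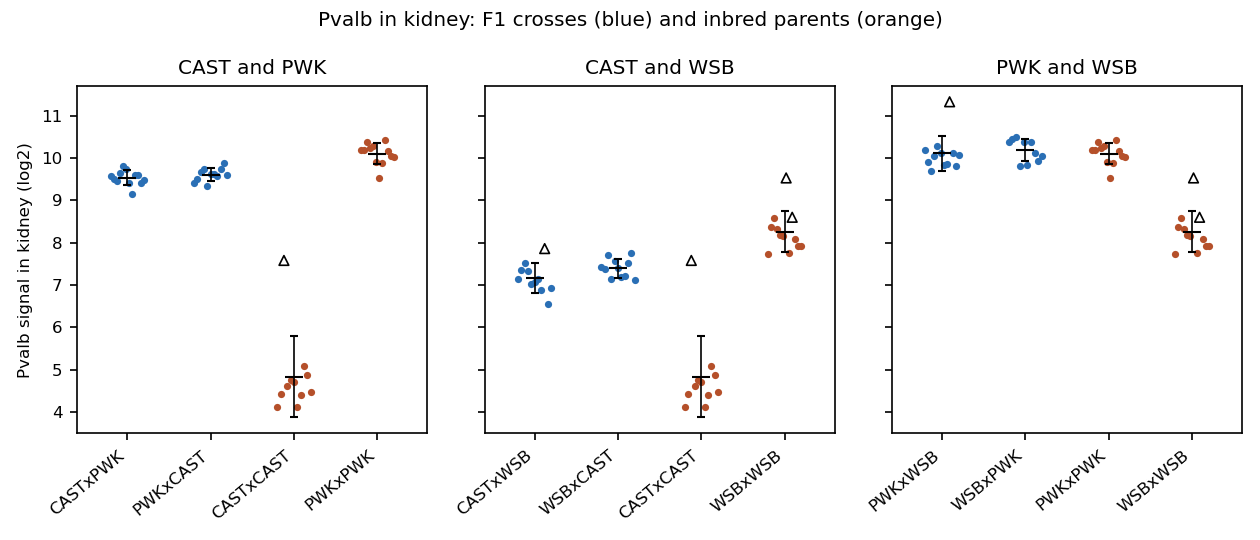
Pvalb signal in kidney (log2, vertical axis), a point per array, with the 2 reciprocal F1 crosses (blue) left of their 2 inbred parents (orange) in each panel, the mean and SD as bars, and open triangles for the 5 arrays with muscle genes. CAST kidneys average 4.83 and PWK kidneys 10.11, and the F1 kidneys of this pair, at 9.54 and 9.61, lie close to PWK.

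Across CAST kidneys Pvalb lay between 4.11 and 7.58 (median 4.61), across PWK kidneys between 9.53 and 10.42 (median 10.18) and across WSB kidneys between 7.73 and 9.53 (median 8.16). The single CAST value above 5.09 and both WSB values above 8.58 were muscle arrays. Means were 4.83 ± 0.96 (SD, n = 11) in CAST, 10.11 ± 0.25 (n = 12) in PWK and 8.26 ± 0.49 (n = 12) in WSB. CAST kidneys therefore lay below all PWK and WSB kidneys, with no overlap of the ranges. PWK and WSB kidneys met only at 9.53, through a muscle array of WSB.

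In CAST kidneys Pvalb stood at the 22.8th percentile of all genes, below the filter level of 6.27 and near its level in liver. At this dim end the signal may not follow the amount of transcript, and strain variants in the probed sequence were not analysed. Differences from CAST kidneys, here and below, are therefore differences of signal, and the fold in transcript is not known. The CAST minus PWK difference was -5.25 ± 0.17 (SE; limma adjusted p = 2.1e-46), or a 38.2-fold lower signal in CAST. CAST minus WSB was -3.41 ± 0.17 (adjusted p = 2.29e-32), or a 10.6-fold lower signal in CAST. PWK minus WSB was 1.85 ± 0.17 (adjusted p = 6.41e-17), or 3.6-fold higher in PWK, and ranked 95 by absolute size among the 11292 tested genes. Without the 5 muscle arrays they were -5.57 ± 0.09, -3.56 ± 0.10 and 2.01 ± 0.09, and the levels became 4.56 ± 0.31 (n = 10) in CAST and 8.10 ± 0.28 (n = 10) in WSB.

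The F1 kidneys did not lie midway on this scale. CASTxPWK kidneys averaged 9.54 ± 0.17 (n = 12) and PWKxCAST kidneys 9.61 ± 0.15 (n = 11). CASTxWSB kidneys averaged 7.16 ± 0.35 (n = 11) and WSBxCAST kidneys 7.40 ± 0.23 (n = 11). PWKxWSB kidneys averaged 10.11 ± 0.42 (n = 12) and WSBxPWK kidneys 10.18 ± 0.26 (n = 10), at the level of inbred PWK. Ordered by mean, each cross overlapped its neighbour in range. Without the muscle arrays 2 gaps opened, between CAST (up to 5.09) and CASTxWSB (from 6.55), and between WSB (up to 8.58) and CASTxPWK (from 9.16).

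F1 kidneys exceeded the mean of their parents by 2.09 ± 0.12 for CAST and PWK (limma adjusted p = 1.09e-26), by 0.73 ± 0.13 for CAST and WSB (1.47e-06) and by 0.96 ± 0.12 for PWK and WSB (9.58e-10). Without the muscle arrays the excess was 2.25, 0.93 and 0.99. The log scale sets where the middle lies, and on the linear scale of signal the answer differed for 1 pair. F1 kidneys of CAST and PWK averaged 765.5 against a linear mid-parent of 578.5, with 22 of 23 above it, and those of PWK and WSB 1168.7 against 722.2, with 22 of 22 above it. F1 kidneys of CAST and WSB averaged 159.2 against 183.0, with 5 of 22 above it. Without the muscle arrays that pair stood at 155.7 against 151.6, a ratio of 1.03. For CAST and WSB the sign of the departure thus depended on the scale and on these arrays.

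The Pvalb strain differences were smaller in brain than in kidney. In brain Pvalb lay between 9.36 and 10.15 in CAST (median 9.87, n = 8), between 9.96 and 10.66 in PWK (median 10.11, n = 6) and between 9.93 and 10.79 in WSB (median 10.31, n = 11). The ranges overlapped in all pairs. The brain differences were -0.31 ± 0.12 for CAST minus PWK (limma adjusted p = 0.0267), -0.46 ± 0.10 for CAST minus WSB (5.02e-05) and -0.15 ± 0.11 for PWK minus WSB (0.278), against 40.9%, 52.4% and 40.4% of all genes called in brain. Strain means of the same cluster lay between 9.81 and 10.33 in brain. In liver the 9 cross means of Pvalb lay between 4.35 and 4.64, next to 4.56 in CAST kidney without its muscle array.

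Kidney minus brain of the strain difference was -4.94 ± 0.24 for CAST minus PWK, -2.94 ± 0.22 for CAST minus WSB and 1.997 ± 0.23 for PWK minus WSB (limma with the animal as a random block, adjusted p = 1.08e-43, 2.33e-26 and 1.16e-13, a test added after seeing the data). In this test 27.7%, 33.1% and 37.6% of 9850 genes were called. Calb1 is the other marker measured well in both organs. Its interaction was -0.40 ± 0.08, -0.64 ± 0.07 and -0.24 ± 0.08 (adjusted p = 2.86e-05, 1.07e-13 and 0.00832).

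**Figure D2:**
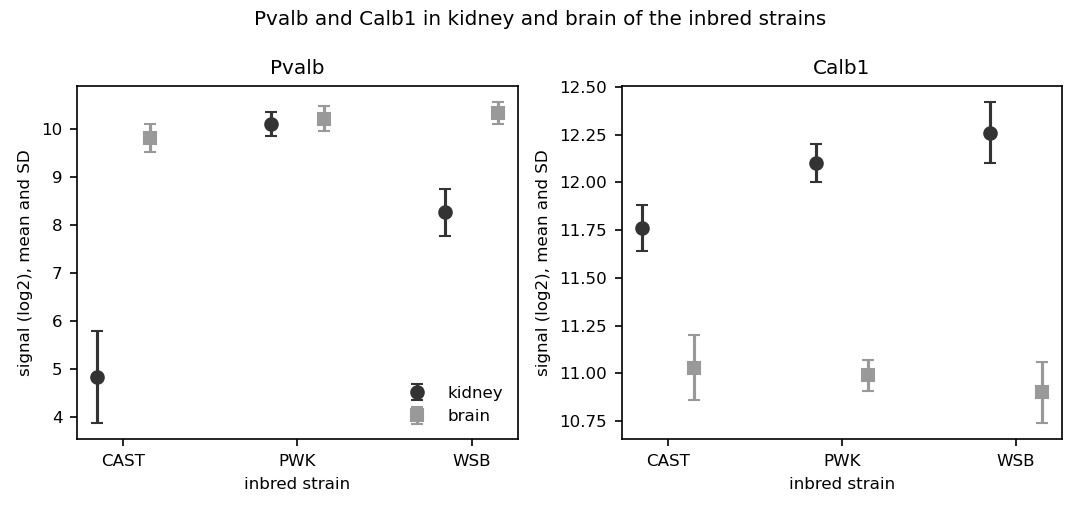
Mean and SD of Pvalb (left panel) and Calb1 (right panel) signal (log2, vertical axis) in kidney (circles) and brain (squares) of the 3 inbred strains. Pvalb in kidney spans 4.83 to 10.11 while in brain it spans 9.81 to 10.33, and Calb1 is higher in kidney than in brain in each strain.

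The other 9 markers varied far less, by 0.09 to 0.95 between the lowest and the highest cross mean, against 5.35 for Pvalb. Aqp2 had the widest span and Slc34a1 the narrowest. Crosses accounted for 77.3% of the variance of Calb1, 71.3% of Aqp2, 64.1% of Slc5a12, 63.4% of Umod, 50.3% of Mep1a, 39.1% of Slc5a2, 34.5% of Slc12a1, 23.3% of Slc34a1 and 8.7% of Slc12a3. For each of these markers every cross overlapped in range with its neighbour in the order of means.

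**Figure D3:**
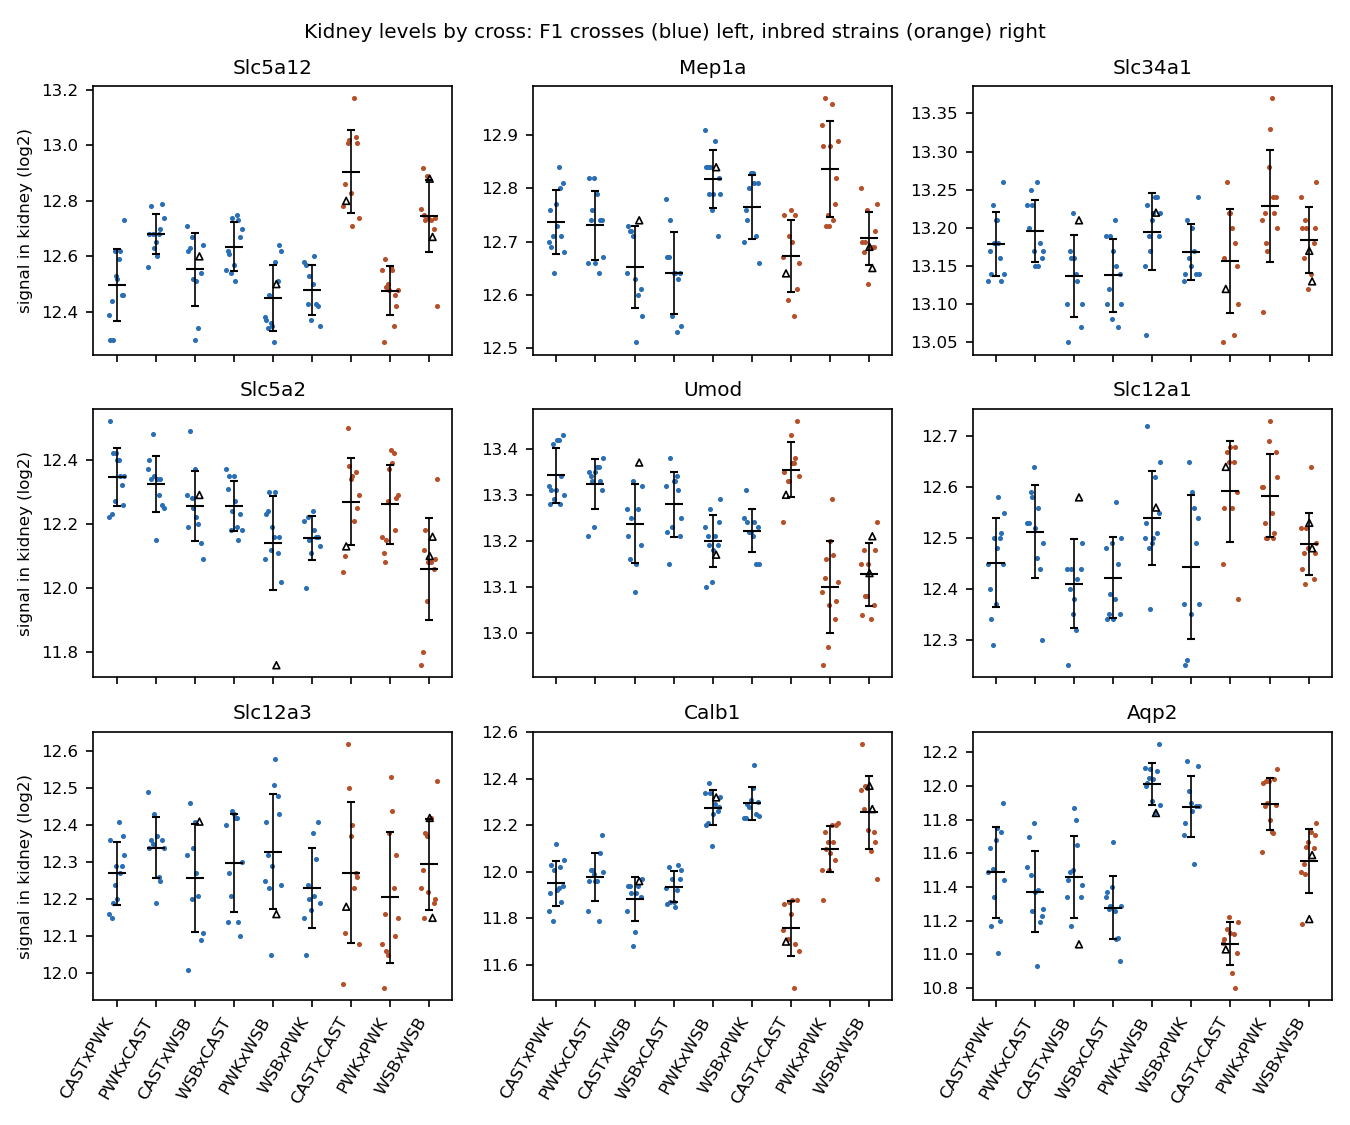
Kidney signal (log2, vertical axes, not starting at 0) of the 9 markers other than Pvalb by cross, with F1 crosses (blue) left and inbred strains (orange) right, a point per array, the mean and SD as bars and triangles for the 5 muscle arrays. Calb1 and Aqp2 are lowest in inbred CAST, and Slc12a3 crosses overlap throughout.

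Of the 10 markers 7 were called in each of the contrasts CAST minus PWK, CAST minus WSB and PWK minus WSB, beside 60.1%, 59.6% and 60.7% of all tested genes. The shares are close to those of all genes, so the count by itself does not set the markers apart. The medians over the 10 markers were -0.03, -0.02 and 0.07, and over all genes -0.02, 0.04 and 0.06. The median absolute differences were 0.21, 0.18 and 0.14 for the markers and 0.18 in each contrast for all genes.

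**Figure D4:**
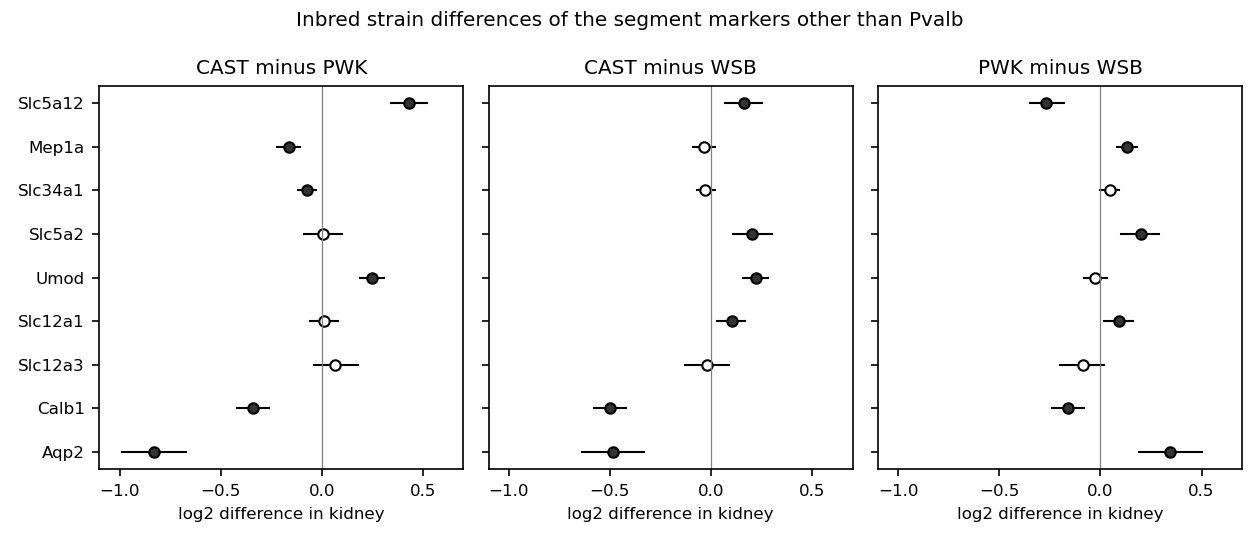
Inbred strain differences in kidney (log2, horizontal axis) of the 9 markers other than Pvalb, with 95% confidence intervals and filled points for adjusted p under 0.05. Aqp2 at -0.83 in CAST minus PWK and Calb1 at -0.50 in CAST minus WSB are lower in CAST, and Slc5a12 at 0.43 in CAST minus PWK is higher in CAST.

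Slc5a12 encodes a sodium-coupled transporter of lactate and other monocarboxylates in the proximal tubule. Its signal lay between 12.71 and 13.17 in CAST kidneys (median 12.86), between 12.29 and 12.59 in PWK kidneys (median 12.49) and between 12.42 and 12.92 in WSB kidneys (median 12.74). Every CAST kidney was above every PWK kidney. The CAST minus PWK difference was 0.43 ± 0.04 (SE; limma adjusted p = 8.01e-15), CAST minus WSB 0.16 ± 0.04 (0.000982) and PWK minus WSB -0.27 ± 0.04 (5.16e-08). Slc5a12 was also called below the parental mean in F1 kidneys, where it fell by 0.10 for CAST and PWK (adjusted p = 0.00799), by 0.23 for CAST and WSB (5.17e-09) and by 0.15 for PWK and WSB (0.000102), all on the log2 scale. When runs of neighbouring animal numbers entered the fit as a random block, only the CAST and WSB call remained. In the CAST and WSB pair 0 of 22 F1 kidneys lay above the linear mid-parent.

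Mep1a encodes the alpha subunit of meprin, a metalloprotease of the brush border. It was measured between 12.56 and 12.76 in CAST (median 12.67), between 12.73 and 12.97 in PWK (median 12.85) and between 12.62 and 12.80 in WSB (median 12.69). PWK was highest with overlap. CAST minus PWK was -0.16 ± 0.03 (adjusted p = 2.16e-07) and PWK minus WSB 0.13 ± 0.03 (1.75e-05), and CAST minus WSB was -0.03 ± 0.03 (0.281). The PWK minus WSB call was lost when arrays were centred on their medians (0.05, adjusted p = 0.218).

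Slc34a1 encodes NaPi-IIa, the main phosphate transporter of the proximal brush border. Its levels spanned 13.05 to 13.26 in CAST kidneys (median 13.16), 13.09 to 13.37 in PWK kidneys (median 13.22) and 13.12 to 13.26 in WSB kidneys (median 13.19). The strains overlapped almost fully. Only CAST minus PWK was called, at -0.07 ± 0.02 (adjusted p = 0.00472), a difference that centring reduced to -0.03 (0.488). CAST minus WSB was -0.03 ± 0.02 (0.301) and PWK minus WSB 0.05 ± 0.02 (0.0762).

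Slc5a2 encodes SGLT2, the glucose transporter of the early proximal tubule. Its kidney signal lay between 12.05 and 12.50 in CAST (median 12.29), between 12.08 and 12.43 in PWK (median 12.27) and between 11.76 and 12.34 in WSB (median 12.09). WSB kidneys were lower, with overlap. CAST minus WSB was 0.20 ± 0.05 (adjusted p = 0.000221) and PWK minus WSB 0.20 ± 0.05 (0.000192), while CAST minus PWK was 0.00 ± 0.05 (0.951; 95% interval -0.09 to 0.10). The 4 proximal markers did not share a strain order. Slc5a12 had its highest strain mean in CAST, Mep1a and Slc34a1 in PWK, and Slc5a2 its lowest in WSB.

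The proximal tubule list of 20 other genes, of which 18 were tested, was as mixed. Counts of this and the other lists stand beside the 60.1%, 59.6% and 60.7% of all genes called in the same contrasts. Against PWK 6 were higher and 5 lower in CAST. Against WSB 4 were higher and 10 lower in CAST, and 4 were higher and 9 lower in PWK. Slc17a3, an organic anion transporter gene, was lower in CAST by -0.84 ± 0.09 against PWK and by -1.14 ± 0.09 against WSB. Aqp1, the water channel of proximal and thin limb cells, was lower in CAST by -0.27 ± 0.03 and -0.31 ± 0.03 in the same contrasts. Between PWK and WSB, Slc22a7 (organic anion transporter 2, -0.84 ± 0.10) and Slc34a3 (the phosphate transporter NaPi-IIc, -0.43 ± 0.04) were lower in PWK.

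Umod encodes uromodulin, the most abundant protein of normal urine, made by thick ascending limb cells. Kidney levels lay between 13.24 and 13.46 in CAST (median 13.35), between 12.93 and 13.29 in PWK (median 13.10) and between 13.03 and 13.24 in WSB (median 13.14). CAST was highest, with every CAST kidney above every WSB kidney (the nearest pair both round to 13.24), while CAST and PWK overlapped. CAST minus PWK was 0.25 ± 0.03 (limma adjusted p = 2.86e-12), CAST minus WSB 0.22 ± 0.03 (1.65e-10) and PWK minus WSB -0.03 ± 0.03 (0.436). With arrays centred on their medians the last was called, at -0.10 ± 0.03 (0.00812). F1 kidneys exceeded the parental mean by 0.11 ± 0.02 for CAST and PWK (3.14e-05) and by 0.10 ± 0.02 for PWK and WSB (0.00011).

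Slc12a1 encodes NKCC2, the sodium, potassium and chloride cotransporter that loop diuretics block. Its level lay between 12.38 and 12.68 in CAST (median 12.64), between 12.50 and 12.73 in PWK (median 12.57) and between 12.41 and 12.64 in WSB (median 12.48). The strains overlapped. CAST minus WSB was 0.10 ± 0.04 (adjusted p = 0.0125) and PWK minus WSB 0.09 ± 0.04 (0.0197), and CAST minus PWK was 0.01 ± 0.04 (0.839). Both calls were lost with the random block of runs (0.0835 and 0.125) and with median centring (0.123 and 0.728). Against the parental mean Slc12a1 was lower in F1 kidneys by -0.10 ± 0.03 for CAST and PWK (0.00137) and by -0.13 ± 0.03 for CAST and WSB (4.83e-05). The 2 thick limb markers thus departed from the mid-parent in opposite directions in the CAST and PWK pair. There the Slc12a1 call was lost with the random block of runs (0.0532), and that of Umod remained (0.0192).

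Of the 10 other thick limb genes 8 were tested, and 4 were higher and 1 lower in CAST than in PWK, 2 and 2 in CAST against WSB, and 3 and 4 in PWK against WSB. Cldn16, a claudin of the paracellular magnesium path, was 0.51 ± 0.08 higher in CAST than in PWK and 0.91 ± 0.08 higher than in WSB. Bsnd, the barttin subunit of the basolateral chloride channel, was lower in PWK than in WSB by -0.67 ± 0.08, and Tmem207 was 0.61 ± 0.09 higher in CAST than in PWK.

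Slc12a3 encodes NCC, the sodium chloride cotransporter of the distal convoluted tubule that thiazides block. Slc12a3 signals lay between 11.97 and 12.62 in CAST (median 12.26), between 11.96 and 12.53 in PWK (median 12.16) and between 12.15 and 12.52 in WSB (median 12.26). The 3 strains covered the same range. No contrast was called, at 0.07 ± 0.06 for CAST minus PWK (adjusted p = 0.309; 95% interval -0.04 to 0.18), -0.02 ± 0.06 for CAST minus WSB (0.755) and -0.09 ± 0.05 for PWK minus WSB (0.155). The last reached -0.16 (adjusted p = 0.0129) with arrays centred on their medians. Slc12a3 shares its segment with Pvalb, yet had the lowest share of variance between crosses of the 10 markers, and Pvalb had the highest.

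Of the 10 other distal convoluted genes 9 were tested, with 5 higher and 3 lower in CAST than in PWK, 1 and 1 in CAST against WSB and 1 and 4 in PWK against WSB. Kcnj16, a basolateral potassium channel subunit, was lower in CAST by -0.30 ± 0.04 against PWK and by -0.30 ± 0.04 against WSB. Wnk4, a kinase that acts on NCC, was 0.50 ± 0.08 higher in CAST than in PWK and lower in PWK than in WSB by -0.47 ± 0.08. The median of the list was 0.14, 0.01 and -0.10 in the 3 contrasts, next to -5.25, -3.41 and 1.85 for Pvalb.

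Calb1 encodes calbindin-D28k, a calcium buffer of the distal convoluted and connecting tubule. Its kidney signal lay between 11.50 and 11.88 in CAST (median 11.75), between 11.88 and 12.21 in PWK (median 12.11) and between 11.97 and 12.55 in WSB (median 12.27). Every CAST kidney was below every WSB kidney, and CAST and PWK met at 11.88. CAST minus PWK was -0.34 ± 0.04 (limma adjusted p = 1.14e-11), CAST minus WSB -0.50 ± 0.04 (2.5e-19) and PWK minus WSB -0.16 ± 0.04 (0.000373). In brain, where Calb1 also marks neurons, CAST averaged 11.03 ± 0.17, PWK 10.99 ± 0.08 and WSB 10.90 ± 0.16, and only CAST minus WSB was called, in the other direction (0.14 ± 0.06, adjusted p = 0.0484).

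F1 kidneys minus the parental mean gave -0.10 ± 0.03 for Calb1 in CAST and WSB (limma adjusted p = 0.00501), 0.11 ± 0.03 in PWK and WSB (0.00229) and 0.03 ± 0.03 in CAST and PWK (0.367). The other connecting tubule list was small, with 4 of 5 genes tested, 2 higher in CAST than in PWK, 2 lower in CAST than in WSB and 2 lower in PWK than in WSB. S100g, the smaller calbindin-D9k, was 0.15 ± 0.07 higher in CAST than in PWK, and lower by -0.23 ± 0.07 in CAST than in WSB and by -0.38 ± 0.07 in PWK than in WSB. The direction between CAST and PWK was thus opposite in the 2 calbindins.

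Aqp2 encodes the water channel that vasopressin inserts in the principal cells of the collecting duct. Its kidney signal lay between 10.80 and 11.22 in CAST (median 11.09), between 11.61 and 12.10 in PWK (median 11.90) and between 11.18 and 11.78 in WSB (median 11.61). Every CAST kidney was below every PWK kidney. CAST minus PWK was -0.83 ± 0.08 (limma adjusted p = 4.23e-16), or 1.78-fold lower in CAST, CAST minus WSB -0.49 ± 0.08 (1.08e-07) and PWK minus WSB 0.34 ± 0.08 (7.68e-05). F1 kidneys of PWK and WSB stood 0.22 ± 0.06 above the parental mean (0.00126), with 20 of 22 above the linear mid-parent. The other pairs gave -0.05 ± 0.06 (0.51) and 0.05 ± 0.06 (0.458). In liver Aqp2 passed the filter and was not called in any contrast (adjusted p = 0.56, 0.0715 and 0.328), where 50.1%, 57.0% and 55.3% of all genes were called.

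Of 9 other principal cell genes tested 1 was higher and 7 lower in CAST than in PWK, beside 60.1% of all genes called in either direction, and their median was -0.38 against -0.02 for all genes. Scnn1b and Scnn1g, subunits of the epithelial sodium channel, differed by -0.88 ± 0.06 and -0.52 ± 0.04, Fxyd4, a regulator of the sodium pump, by -1.05 ± 0.10, and Hsd11b2, which shields the mineralocorticoid receptor from glucocorticoids, by -0.38 ± 0.04. Against WSB the direction of most members was the other one, with 6 higher and 1 lower in CAST and a median of 0.22, while Aqp2 was lower in CAST. Hsd11b2 was 0.22 ± 0.04 and Aqp4, a basolateral water channel, 0.70 ± 0.08 higher in CAST than in WSB, and Scnn1b lower by -0.41 ± 0.06. PWK exceeded WSB for 8 of 9 genes and none was lower, with a median of 0.46, Fxyd4 at 1.01 ± 0.10 and Aqp4 at 0.92 ± 0.08.

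Intercalated cells, which secrete acid or base among the principal cells, gave 0 higher and 7 lower of 10 genes in CAST against PWK, 5 and 5 in CAST against WSB, and 6 and 1 in PWK against WSB. Rhbg, an ammonia transporter, was lower in CAST by -1.18 ± 0.04 against PWK and by -0.89 ± 0.04 against WSB. Slc4a9, a bicarbonate transporter of these cells, differed by -0.82 ± 0.06 and -0.35 ± 0.06 in the same contrasts. Atp6v0d2, a proton pump subunit, was 0.56 ± 0.04 higher in CAST than in WSB and 0.61 ± 0.04 higher in PWK than in WSB. Other cell types differed between these strains too. All 7 fibroblast genes were higher in CAST than in WSB and 6 of 7 in PWK than in WSB, with 1 of 7 higher in CAST than in PWK, and their part in the marker differences was not tested.

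Reciprocal crosses, which share parents and differ in which strain is the dam, gave 1 called marker. Slc5a12 averaged 12.50 ± 0.13 (SD, n = 12) in CASTxPWK kidneys and 12.68 ± 0.07 (n = 11) in PWKxCAST kidneys, a difference of -0.18 ± 0.04 (SE; limma adjusted p = 0.00677), with overlapping ranges. With the random block of animal-number runs the difference was -0.21 ± 0.07 and no longer called (adjusted p = 0.986). No other marker was called by limma between reciprocal crosses. Without the 5 muscle arrays Pvalb in CASTxWSB minus WSBxCAST was -0.31 ± 0.09 (limma adjusted p = 0.0503), against -0.23 ± 0.18 (0.592) with all kidneys. At an unadjusted p under 0.05 stood 1 of 10 markers in each pair, beside 16.4%, 14.1% and 13.1% of all genes. Of all genes 3.03% were called between CASTxPWK and PWKxCAST, 2.44% between CASTxWSB and WSBxCAST and 1.0% between PWKxWSB and WSBxPWK.

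Against the parental mean 4 of 10 markers were called for CAST and PWK, 5 for CAST and WSB and 5 for PWK and WSB, beside 33.7%, 42.7% and 37.4% of all genes. Of these 14 calls 7 remained with the random block of runs, where 8.10%, 17.5% and 9.90% of all genes were called. They were the 3 of Pvalb, both of Umod, and 1 each of Slc5a12 and Slc12a1 in CAST and WSB. The block ended the calls of Aqp2 (0.21, adjusted p = 0.109), Calb1 (0.15 and 0.139) and Slc5a2 (0.272), and the other calls of Slc5a12 (0.199 and 0.0508) and Slc12a1 (0.0532). The labels do not say what these runs stand for. The Slc5a2 call in CAST and WSB (0.09 ± 0.04, adjusted p = 0.0235) was also lost without WSBxWSB replicate 1 (0.0543) or CASTxWSB replicate 3 (0.0523).

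The sexes gave no called marker. Limma called 0 of 10 for female minus male and 0 of 10 for the interaction of sex and cross. Of all genes 10.9% and 4.52% were called. At an unadjusted p under 0.05 stood 1 of 10 markers in each, beside 25.9% and 17.1% of all genes. Mep1a averaged 12.71 ± 0.09 in the 51 female kidneys and 12.75 ± 0.10 in the 51 male kidneys (SD), a difference of -0.03 ± 0.01 (SE; adjusted p = 0.0914). Mep1a was called without PWKxPWK replicate 6 (adjusted p = 0.0483) or CASTxWSB replicate 7 (0.0423). With array weights Mep1a was also called (-0.035 ± 0.013, 0.0424), and so were Slc5a12 and Slc12a3 in the interaction (0.0454 and 0.0456). The 95% interval for Aqp2 was -0.04 to 0.11 and for Slc12a3 -0.06 to 0.04. The Aqp2 strain difference was close in both sexes, at -0.83 in females and -0.82 in males for CAST minus PWK. Some other differences were less alike. PWK minus WSB was -0.03 in females and -0.29 in males for Calb1, and 0.06 and 0.2 for Mep1a. The interaction was not called for either marker (limma F-test adjusted p = 0.364 and 0.425).

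Covariation along the nephron was read from the deviation of each kidney from the mean of its cross and sex, so strain differences do not enter. Of the 45 pairs of markers 11 were called (permutation within cross and sex, 100000 resamples, adjusted over the 45 pairs), 8 positive and 3 negative. The median absolute r was 0.14 over the marker pairs and 0.21 over all pairs of tested genes, and 22.2% of the marker pairs reached an absolute r of 0.3, against 33.8% of all pairs. Both values were lower for the markers.

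**Figure D5:**
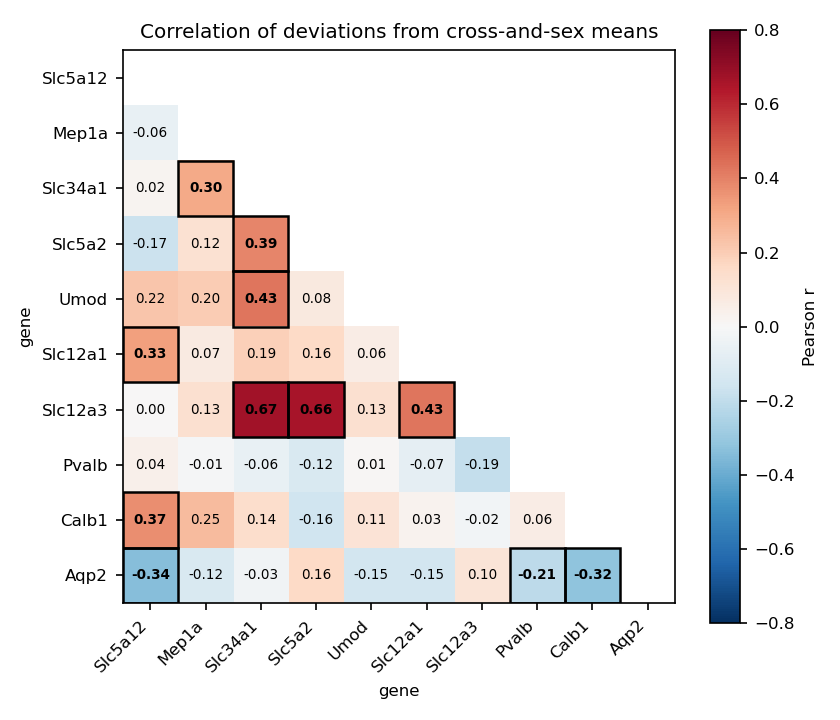
Pearson r (colour and number) between the 10 markers, ordered by segment, over 102 kidneys. Each kidney is taken as its deviation from the mean of its cross and sex, and boxes mark pairs called after adjustment over 45 pairs. Slc12a3 correlates with Slc34a1 at 0.67 and with Slc5a2 at 0.66, and Aqp2 has negative r with Slc5a12, Pvalb and Calb1.

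The highest correlations joined the distal convoluted tubule to the proximal tubule. Slc34a1 and Slc12a3 had r = 0.67 and rho = 0.66 (permutation p = 1e-05 for each, the smallest these resamples can give, adjusted p = 0.000225), with r = 0.63 without the 2 kidneys farthest from the median and 0.29 to 0.92 within the 9 crosses. Slc5a2 and Slc12a3 had r = 0.66 and rho = 0.62 (permutation p = 1e-05 for each, adjusted p = 0.000225), with r = 0.66 without the 2 farthest kidneys and 0.33 to 0.91 within crosses. All 9 crosses were positive for both pairs. The first principal component of all tested genes held 23.6% of the variance and correlated with Slc12a3 at r = 0.86, Slc5a2 at 0.68 and Slc34a1 at 0.58. With that component removed, the Slc34a1 and Slc12a3 correlation was 0.41 and still called, and that of Slc5a2 and Slc12a3 was 0.19 (adjusted p = 0.238).

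Further positive pairs were Slc12a1 with Slc12a3 (r = 0.43, rho = 0.42), Slc34a1 with Umod (0.43 and 0.34), Slc34a1 with Slc5a2 (0.39 and 0.44), Slc5a12 with Calb1 (0.37 and 0.41), Slc5a12 with Slc12a1 (0.33 and 0.34) and Mep1a with Slc34a1 (0.30 and 0.37). The permutation p-values of r lay between 2e-05 for Slc12a1 with Slc12a3 and 0.0105 for Mep1a with Slc34a1 (adjusted 0.0003 and 0.0429), and those of rho between 0.0001 and 0.00156. Without the 2 farthest kidneys r lay between 0.32 and 0.44. Only Slc12a1 with Slc12a3 was positive in 9 of 9 crosses, the others in 7 or 8. With the first component removed, Slc34a1 with Slc5a2 had r = -0.00 (adjusted p = 0.999) and Slc12a1 with Slc12a3 had r = 0.11 (0.507), so neither was called. In the same setting 5 pairs gained a call (adjusted permutation p in brackets). Slc12a3 with Calb1 went from -0.02 to 0.44 (0.0006). The others were Slc34a1 with Calb1 at 0.38 (0.00367), Slc5a12 with Slc12a3 at 0.37 (0.00315), Mep1a with Calb1 at 0.28 (0.038) and Slc12a1 with Aqp2 at -0.25 (0.0489). On deviations within runs of animal numbers Slc34a1 with Slc5a2 was 0.20 (0.27). Without the 5 muscle arrays Mep1a with Slc34a1 was 0.27 (adjusted p = 0.117). Among the proximal markers Slc5a12 had r of -0.06 with Mep1a, 0.02 with Slc34a1 and -0.17 with Slc5a2, none of them called. The 2 thick limb markers, Umod and Slc12a1, had r = 0.06, not called. With arrays centred on their medians Slc5a12 was called with Mep1a (0.31, adjusted p = 0.0194) and with Slc34a1 (0.39, 0.00315), and Umod with Slc12a1 (0.25, 0.0423). Whether markers of a segment moved together thus depended on centring, and for Slc12a3 with Calb1 on removing the first component. The distal convoluted markers Slc12a3 and Pvalb had r = -0.19 (permutation p = 0.314, adjusted 0.505) and rho = -0.30 (permutation p = 0.00524, adjusted 0.0214), called by rho only.

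By r over all kidneys, all 3 negative pairs held Aqp2. Slc5a12 and Aqp2 had r = -0.34 and rho = -0.33 (permutation p = 0.00122 and 0.00197, adjusted 0.0102 and 0.00886). Calb1 and Aqp2 had -0.32 and -0.33 (permutation p = 0.00239 and 0.00184, adjusted 0.0134 and 0.00886), and Pvalb and Aqp2 -0.21 and -0.23 (0.00983 and 0.0233, adjusted 0.0429 and 0.0807). Each was positive in 1 of 9 crosses, and without the 2 farthest kidneys r was -0.36, -0.29 and -0.21. Without the 5 muscle arrays the Pvalb and Aqp2 correlation was -0.06 (adjusted p = 0.754). Slc12a1 with Pvalb was called negative without those arrays (r = -0.38, adjusted permutation p = 0.0112), and by rho over all kidneys (-0.28, 0.0279). The r of this pair over all kidneys was -0.07 (0.681), and within runs of animal numbers 0.01 (0.965), neither called. With arrays centred on their medians 24 of the 45 pairs were called, 23 of them positive and 1 negative, and Slc5a12 with Aqp2 (-0.17, adjusted p = 0.177) and Calb1 with Aqp2 (-0.10, 0.467) were not.

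Over the 9 cross means the picture was another one, given as a description because crosses share parents. Calb1 and Aqp2 had r = 0.84 and Pvalb and Aqp2 0.82, the opposite sign to that within crosses, and Slc5a12 and Aqp2 had -0.81. The negative r of Calb1 and Aqp2 within crosses was no longer called on deviations within runs of animal numbers (-0.28, adjusted p = 0.0751), nor after the centring given above.

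The markers were also set against the mean deviation of lists of other genes, 180 relations in all, with adjusted permutation p-values over all of them. Where no p is given below, r had 8.57e-05 and rho 0.000112 or 0.00018 after adjustment. Aqp2 correlated with the other principal cell genes (r = 0.58, rho = 0.58) and with intercalated cell genes (0.38 and 0.35, adjusted permutation p = 0.0009 and 0.00519), and negatively with the other connecting tubule genes (-0.50 and -0.47). Calb1 correlated with the connecting tubule genes (0.52 and 0.51), and so did Slc5a12 (0.52 and 0.55). Without the 2 farthest kidneys these values of r were 0.56, 0.34, -0.48, 0.51 and 0.53 in the order given. Slc12a3 correlated with the other distal convoluted genes (0.75 and 0.70) and the other proximal genes (0.67 and 0.65), and also with endothelial genes (0.76 and 0.77) and podocyte genes (0.68 and 0.64). Without the 2 farthest kidneys these were 0.70, 0.69, 0.74 and 0.63. The part of the first component in these relations was not tested. Slc34a1 was positive with proximal genes (0.54 and 0.54) and negative with thick limb genes (-0.53 and -0.49), at 0.48 and -0.48 without the 2 farthest kidneys. Slc34a1 was as high with endothelial genes (0.55 and 0.57) and podocyte genes (0.50 and 0.51), at 0.54 and 0.51 without the 2 farthest kidneys. Slc5a2 was positive with proximal genes (0.62 and 0.58, and r = 0.62 without those 2). It was also positive with endothelial genes (0.54 and 0.57) and podocyte genes (0.49 and 0.45, adjusted permutation p = 8.57e-05 and 0.000257). Without the 2 farthest kidneys these were 0.58 and 0.48. Other markers were not called with the list of their own segment. With proximal genes Slc5a12 had r = -0.02 and rho = -0.00 (adjusted permutation p = 0.972 and 0.994) and Mep1a 0.19 and 0.22 (0.302 and 0.144), and with thick limb genes Umod had -0.05 and 0.01 (0.889 and 0.988) and Slc12a1 0.17 and 0.19 (0.332 and 0.229). Slc12a1 was called with other lists. Its highest r were with tubule transcription factors (0.70 and 0.69), medullary osmolyte and urea genes (0.69 and 0.67) and distal convoluted genes (0.53 and 0.53). Without the 2 farthest kidneys these were 0.67, 0.71 and 0.51. By r, Pvalb was called with no list, the lowest r being -0.25 with endothelial genes (adjusted permutation p = 0.0942). By rho, 5 lists were called, with rho between -0.33 and -0.40 (adjusted permutation p between 0.00161 and 0.00625), of which the lowest was the tubule transcription factors.

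Genes most like each marker over the 102 kidneys, by r of the same deviations, were named by rule and described without a test. For Aqp2 they were Crip2 (0.75), Fam171a2 (0.69) and Npdc1 (0.67), and the most opposed was Wwp1 (-0.58). For Slc12a3 they were Lama5, Prpf8 and Tln1 (0.87 each) with Tmem42 opposed (-0.85), and for Slc12a1 Cd47, Rbms3 and Tnks (0.77 each) with Snrpc opposed (-0.77). For Slc5a12 they were Zfp871 (0.77), Tm9sf3 (0.72) and Fam126b (0.71) with Npdc1 opposed (-0.67), so the same gene sat at opposite ends for Slc5a12 and Aqp2. For Slc34a1 they were Cdhr2 (0.68), a brush border cadherin, Slc12a3 (0.67) and Gm12070 (0.66) with Snu13 opposed (-0.68). For Slc5a2 they were Coro7 (0.78), Sardh (0.77) and Susd2 (0.77) with Tm2d1 opposed (-0.76). With the first principal component the genes named for Slc12a3 had r of 0.91, 0.90, 0.93 and -0.87 in the order given. Those for Slc5a2 had 0.78, 0.66, 0.87 and -0.86, and those for Slc12a1 0.55, 0.48, 0.67 and -0.54. Those for Slc34a1 had 0.69, 0.86, 0.24 and -0.87. Those for Aqp2 had 0.32, 0.23, 0.21 and 0.0, and those for Slc5a12 -0.08, -0.25, -0.36 and 0.21. Of all tested genes 38.7% had an absolute r of at least 0.5 with this component.

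Likeness was lower for the rest. The closest to Umod were Gm4750 (0.61), Traf3ip1 (0.50) and Fbp1 (0.49), with Pla2g1b opposed (-0.48), and to Mep1a Calr (0.45), Lamp1 (0.42) and Tcn2 (0.42), with Cyrib opposed (-0.42). For Calb1 they were Scoc (0.58), Tfec (0.55) and Ogn (0.54), with Trafd1 opposed (-0.60). For Pvalb they were the muscle genes Acta1 (0.67), Actn3 (0.66) and Eno3 (0.61), with Ndufa10 opposed (-0.38), and Acta1 belongs to the list that set the 5 muscle arrays apart.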

How the data were processed

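RNA of 386 mouse tissue samples had been hybridised to Affymetrix arrays. The authors deposited log2 signals per transcript cluster, made with RMA in Affymetrix Expression Console per the submitters' processing notes, without versions. The 35556 clusters comprised 21218 with 1 gene symbol in the platform annotation (18820 genes), 1881 with several and 12457 with none. Sample groups came from the source labels, and replicate numbers follow record order and only name arrays. Precision is limited by the number of arrays.

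The members and gene lists were chosen with earlier results of these data known. In each tissue the 11292 genes at or above the 40th percentile of mean signal were tested with limma 3.58.1 in R 4.3.3 (trended eBayes) on 18 cross-by-sex means, with Benjamini-Hochberg adjustment over all of them and a threshold of 0.05. Inbred contrasts weight the sexes equally. The tissue contrast used 36 cross-by-tissue means. Its main fit left out the animal, although the 386 arrays came from 111 animals. Correlations used deviations from cross-by-sex means and 100000 permutations within cross and sex (Python 3.11.15, numpy 2.4.6, pandas 2.3.3). The code was tested on simulated data.

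Genes were named by rule: all members, for each member the 3 genes of highest and the 1 of lowest r, and of each list up to 4 called genes of smallest p. The part of another list in a result was not tested. Alternatives were no filter, a filter at the 60th percentile, array centring, array weights, an additive model, a random block of 25 runs of neighbouring animal numbers (gaps up to 5), each array left out in turn, and, added after seeing the data, leaving out muscle arrays, removing the first principal component, a linear mid-parent and the kidney against brain interaction. List genes not measured by a single-symbol cluster were not used.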

Additional observations from a re-analysis of the deposited data

Results flagged for a closer look

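The strain differences of Pvalb and Calb1 differed between kidney and brain by a direct test (limma over both tissues with the animal as a random block, added after seeing the data). For Pvalb, kidney minus brain of the strain difference was -4.942 in CAST minus PWK, -2.945 in CAST minus WSB and 1.997 in PWK minus WSB. For Calb1 it was -0.402, -0.643 and -0.241 in the same contrasts. An outlier test was run only in the smallest cross, WSBxPWK with 10 kidneys, where no member had an extreme array. The other crosses were not tested in this way, and they hold the 5 muscle arrays.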

How the results depend on the processing

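Inbred contrasts gave 21 of 30 calls, and 19 to 22 under the alternatives run (19 with centring and with the random block, 22 with array weights), and leaving out each of the 102 kidneys in turn gave 21 to 22. Leaving out a kidney gave 13 to 15 mid-parent calls (14 in all), 1 reciprocal call each time and 0 to 1 calls between the sexes (0). With a random block of animal-number runs, 7 mid-parent calls and 0 reciprocal calls remained. Array weights gave 1 call between the sexes and 2 for sex by cross. Median centring gave 24 correlated pairs instead of 11. The cause of these changes was not tested.

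On the linear scale Pvalb in CAST and WSB lay below the mid-parent, at -0.20 on the log2 scale against 0.73 with log2 means, and at 0.04 without the 5 muscle arrays. The linear values of the other pairs were 0.40 and 0.69, and 0.42 and 0.66 without those arrays. Single-member differences and interaction tests were compared under alternatives other than leaving out 1 array. Of these, 735 stayed on the same side of the threshold, 10 gained and 15 lost a call. Of the correlations, 233 stayed on the same side, 24 gained and 13 lost a call. Direction was compared only where the main result was called, so an uncalled result could change sign and still count as unchanged. The dim end of the scale limits the Pvalb difference of CAST kidneys. Kidneys of different crosses could not be paired, because each is a separate animal and replicate numbers follow record order. Tissues of the same animal are paired, and the animal entered the kidney against brain test as a random block.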

Other observations

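Among genes for organic osmolytes and urea, which belong to the medulla and not to the segment markers, single members differed between the strains, although the counts of the list were no higher than for all genes. Slc6a12, the betaine transporter of the renal medulla, was 1.42 ± 0.10 (SE) higher in CAST than in PWK and 0.38 ± 0.10 higher than in WSB, and lower in PWK than in WSB by -1.04 ± 0.10. F1 kidneys exceeded the parental mean for it in all 3 pairs, by 0.52 ± 0.07 for CAST and PWK, 0.38 ± 0.07 for CAST and WSB and 0.34 ± 0.07 for PWK and WSB. Against the parental mean 33.7%, 42.7% and 37.4% of all genes were called in these pairs. With the random block of runs the shares were 8.10%, 17.5% and 9.90%, and its result for Slc6a12 is not given here. Slc14a2, the urea transporter of the inner medullary collecting duct, was lower in CAST than in PWK by -0.61 ± 0.14, like Aqp2, and higher in PWK than in WSB by 0.52 ± 0.13. Of the 5 medullary genes tested, 2 were higher and 1 lower in CAST than in PWK, 2 and 0 in CAST against WSB, and 1 and 2 in PWK against WSB, beside 60.1%, 59.6% and 60.7% of all genes called in either direction.

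Among 10 tested transcription factors of the tubule, 2 were higher and 3 lower in CAST than in PWK, 3 and 2 in CAST against WSB, and 5 and 1 in PWK against WSB, shares at or below those of all genes. Ppargc1a, a coactivator of mitochondrial genes, was below the parental mean in F1 kidneys of all 3 pairs, by -0.18 ± 0.04, -0.34 ± 0.04 and -0.26 ± 0.04. Tfcp2l1, a factor of distal tubule and collecting duct cells, was also below it in all 3 pairs, by -0.18 ± 0.04, -0.26 ± 0.04 and -0.21 ± 0.04. These stand beside 33.7%, 42.7% and 37.4% of all genes called against the parental mean. With the random block of runs the shares were 8.10%, 17.5% and 9.90%, and its results for Ppargc1a and Tfcp2l1 are not given here.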
